A study of Mus musculus with 29 samples.

Results

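The genes described here are the cytosolic ribosomal protein genes, 48 of the 18194 genes that had a probe set with a single symbol on the array. They were chosen by name alone: symbols made of Rpl or Rps and a number, with the copies that carry an added letter, and the stalk genes Rplp0, Rplp1 and Rplp2 where a single-symbol probe set existed, leaving out the S6 kinases and pseudogenes. The large subunit gave 26 members and the small subunit 22. A further 28 ribosomal protein symbols had only probe sets that are annotated to several genes, and these symbols are not members. The 48 genes were read by 103 probe sets, 23 of them by more than 1, and each gene is represented by the probe set with the highest mean unless another is named.

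The study profiled retina RNA from 5 inbred mouse strains on 29 Affymetrix arrays, late in gestation (E18.5, in embryonic days) and in the young adult (P30.5, in days after birth). RD7 is a strain with an inherited retinal degeneration, C57BL6/J is the reference for the strain comparisons here, and the others were NOD.NON-H2-nb1, CAST/EiJ and AKR/J. The RNA of 10 dissected retinas was pooled for each array, so the spread between arrays is a spread between pools of mixed animals. There were 3 arrays of every strain and age but 1: AKR/J had 2 of E18.5. No treatment is given for any group, and the age in days is the only age given. Whether arrays of a group came from separate litters is not stated, so p-values measure the spread between these pools.

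A ribosome is built of a small subunit, which reads the messenger RNA, and a large subunit, which joins the amino acids, and each holds ribosomal RNA and a large set of proteins made in near-equal numbers. The mRNAs of these proteins are among the most abundant in growing and dividing cells, and many of them begin with a C followed by a run of pyrimidines (the 5′ terminal oligopyrimidine, or TOP, motif), through which mTOR signalling controls their translation. In the mouse retina, cells still divide at birth, and a month later all neurons are postmitotic and rods make up most of the cells.

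The start of the transcript is shown for the members whose annotated start carries such a run, since it is the sequence feature that the family is known for. Sequences are RefSeq, build GRCm38.p6, from 12 bases before the annotated start to 18 bases from it on. A start was counted where the base at the start is C and at least 4 further bases are C or T, on the transcribed strand and at the annotated base only. Capitals mark that run.
Rpl35, chr2:39005114-39005143, minus strand: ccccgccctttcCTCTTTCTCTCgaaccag
Rps10, chr17:27635227-27635256, minus strand: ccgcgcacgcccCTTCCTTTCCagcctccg
Rps6, chr4:86857350-86857379, minus strand: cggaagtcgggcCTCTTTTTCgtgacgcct
Rps18, chr17:33955648-33955677, minus strand: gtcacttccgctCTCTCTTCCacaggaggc
Rpl38, chr11:114668568-114668597, plus strand: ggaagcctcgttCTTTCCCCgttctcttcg
Rps27, chr3:90213631-90213660, minus strand: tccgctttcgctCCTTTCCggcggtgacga
Rpl14, chr9:120571505-120571534, plus strand: cgggccctctctCTTCTCgctgagcgccgc
Rplp2, chr7:141447639-141447668, plus strand: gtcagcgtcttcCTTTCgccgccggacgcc

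The same window is shown for a pair of members without the run at any start in the RefSeq table used. They were chosen because their age changes were among the larger ones, and the base at the start is in capitals. The Rps27l window is that of its more upstream start in that table. The annotated gene begins further upstream, at base 66944624, which was not examined.
Rplp0, chr5:115559455-115559484, plus strand: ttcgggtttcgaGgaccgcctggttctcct
Rps27l, chr9:66946074-66946103, plus strand: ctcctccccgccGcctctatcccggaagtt

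Of the 42 members with a start counted from the RefSeq table, 8 (19.05%) had such a run, against 813 of all 27025 genes in it (3.01%). The other 6 members had no counted start, Rps14 among them. Starts on chromosome 18, where Rps14 lies, were left out for the members and not for all genes. The mean age change over the 5 strains had a median of −1.04 on the log2 scale among those 8, with a range from −2.02 to 0.32. Among the 34 others it had a median of −0.73 and a range from −2.47 to 0.73. The ranges overlap nearly throughout, and the match depends on which base is annotated as the start.

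The MAS5 signal is a linear brightness, scaled so that every array has the same trimmed mean, and changes are differences of log2 signals from limma, with adjusted p-values over all 45101 probe sets. A member is called where the adjusted p is under 0.05. Where 5 values of the strains follow each other without names, their order is C57BL6/J, then AKR/J, then CAST/EiJ, then NOD.NON-H2-nb1, then RD7, called the strain order. The array titles carry a date, numbered here from 1 to 4. The 7 arrays of the first date stood apart: their log2 signal for the BioB hybridisation spike was 8.80 to 9.43, against 6.99 to 8.25 in the other 22. The tissue markers followed the labels, with 9 of 9 rod genes higher and 8 of 8 progenitor genes lower at P30.5 in each strain. Several E18.5 pools also held skeletal muscle RNA, the mean log2 signal of 17 muscle genes ranging from 5.55 to 11.35 over the 14 E18.5 arrays and from 4.80 to 6.22 over the 15 P30.5 arrays.

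The mean log2 signal of the representative probe sets over all arrays was 12 or more for 34 members, between 10 and 12 for 2 and under 10 for 12. Since probe sets differ in how well they bind, these signals are not amounts of RNA that can be set against each other. The probe sets of Rps29, Rps7, Rps4x and Rps14, all small subunit proteins, had the brightest signals, with means of 14.66, 14.38, 14.28 and 14.26. Those of Rps16, Rpl3l, Rpl39l and Rps27 were the dimmest, with means of 0.50, 3.84, 5.76 and 7.02. Rps16 and Rps27 were dim on these probe sets only. The 2 probe sets shared between Rps16 and other symbols had means of 14.08 and 14.49, and the 1 shared by Rps27 had a mean of 13.24.

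Ribosomal protein genes were lower at P30.5 than at E18.5 in every strain, while the median of all genes lay near 0. In C57BL6/J, 21 of the 48 members were called lower, where 17.4% of all genes were called lower. AKR/J had 30 members called lower against 15.7% of all genes, and CAST/EiJ 19 members against 17.5%. NOD.NON-H2-nb1 had 30 members against 16.8%, and RD7 26 members against 17.6%. No member was called higher by limma in any strain, and none was higher at an unadjusted p under 0.05 either, while 17.6%, 15.9%, 16.5%, 16.6% and 16.7% of all genes were called higher, in strain order.

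The members' median log2 change was −0.61, −0.89, −0.61, −0.81 and −0.73 in strain order, largest for AKR/J. Over all 18194 genes the medians were 0.08, 0.02, 0.02, 0.01 and 0.05. The mean change over the strains was below −1 for 14 of the 48 members. In sign the members were more alike: 43 of the 48 changes were negative in all 5 strains. Of the members, 15 were called lower in all 5, 8 in 4, and 33 in at least 1. Such counts over several strains are not given here for all genes, so they are not set against the array as a whole. In bulk RNA, fewer cells of a type and less RNA per cell cannot be told apart.

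With the stricter threshold of the study's methods, which also asks for a change of 2-fold or more and sets the adjusted p under 0.001, fewer members passed. They were 7, 12, 9, 9 and 6 in strain order, where 7.70%, 6.36%, 7.82%, 7.42% and 7.22% of all genes were lower. With the title date as a replicate block, 38 members were called lower in C57BL6/J and 29 in CAST/EiJ. Without the 7 arrays of the first date the counts were 31, 35, 21, 29 and 30 in strain order. With the muscle level as a covariate they were 11, 32, 19, 30 and 28, so that only the C57BL6/J count moved by over 1.5 times. For the fits with the date block, without the first date or with the muscle level, the share of all genes called lower is not given here. Whether the calls over all genes moved alike is thus not shown, and the same holds for fits without 1 array. Single arrays moved the counts of members. Without replicate 3 at P30.5 or replicate 2 at E18.5, 13 members were called in C57BL6/J, and without replicate 3 at P30.5 or replicate 2 at E18.5, 11 in CAST/EiJ. The AKR/J count was 19 without replicate 2 at P30.5 and 15 without replicate 1 at E18.5, and in RD7 it was 15 without replicate 3 at P30.5.

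**Figure D1:**
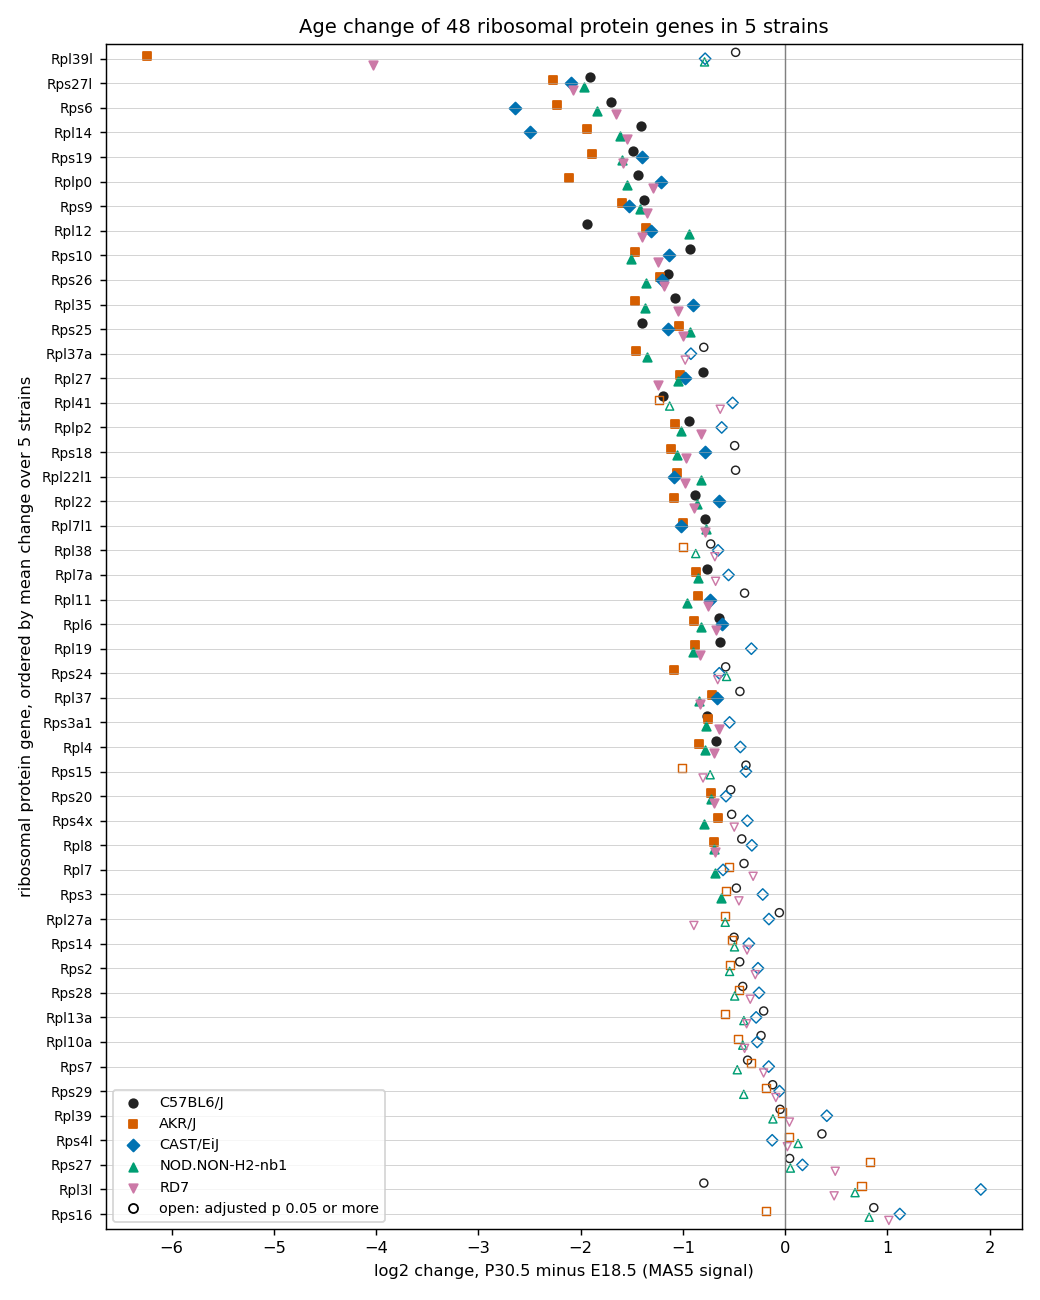
Each row is 1 of the 48 ribosomal protein genes, and the x axis is the log2 change from E18.5 to P30.5 in each of 5 strains, filled where the adjusted p is under 0.05. In all 5 strains 43 rows lie left of 0, and no filled point lies to the right of it.

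The stalk of the large subunit, which recruits the elongation factors, was represented by Rplp0 and Rplp2. In C57BL6/J the Rplp0 signal was 20728, 21708 and 19456 at E18.5 and 8876, 8107 and 6090 at P30.5. AKR/J had 16729 and 16064 at E18.5 and 5360, 3276 and 3093 at P30.5. CAST/EiJ had 16039, 24905 and 18578 at E18.5 and 6346, 10142 and 9197 at P30.5. Every E18.5 array lay above every P30.5 array within each of these strains. NOD.NON-H2-nb1 had 15466, 29492 and 21101 at E18.5 and 6923, 8296 and 6674 at P30.5. In RD7 it was 20292, 27325 and 21922 at E18.5 and 7749, 17427 and 6087 at P30.5, the P30.5 array at 17427 being that of the first date. The log2 change of Rplp0 was −1.44 ± 0.29 (SE), −2.11 ± 0.32, −1.22 ± 0.29, −1.55 ± 0.29 and −1.29 ± 0.29 in strain order, with adjusted p from 1.33e-05 in AKR/J to 0.002 in CAST/EiJ. Rplp2, the partner that carries the flexible tail of the stalk, changed by −0.94, −1.08, −0.62, −1.02 and −0.82 in strain order. It was called in 4 strains and missed the threshold in CAST/EiJ with an adjusted p of 0.0651.

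Among members with a mean signal above the dimmest, Rps27l fell most. It is a copy of Rps27 that p53 is known to induce. In C57BL6/J its signal was 2289, 2274 and 2173 at E18.5 and 897, 477 and 502 at P30.5. AKR/J had 4243 and 2088 at E18.5 and 813, 555 and 524 at P30.5. CAST/EiJ had 4910, 4836 and 3504 at E18.5 and 1140, 1167 and 795 at P30.5. The ages did not overlap, and at each age the 2 brightest arrays were CAST/EiJ pools. NOD.NON-H2-nb1 had 3027, 2353 and 1594 at E18.5 and 704, 660 and 408 at P30.5, and RD7 2854, 2959 and 2432 against 823, 813 and 407. The mean log2 change over strains was −2.06, a 4.18-fold fall, from −2.27 in AKR/J to −1.91 in C57BL6/J, with adjusted p no higher than 1.57e-05. All 3 probe sets of Rps27l gave changes between −2.67 and −1.91.

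Rps27, the core gene that Rps27l copies, did not fall on its own probe set, where the changes were 0.04, 0.83, 0.17, 0.05 and 0.49 in strain order, none of them called. On the brighter probe set that Rps27 shares with other symbols the changes were −0.53, −1.15, −0.70, −1.13 and −0.83.

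Rps19, a small subunit protein whose gene is mutated in human Diamond-Blackfan anaemia and in mice with dark skin, fell in a narrow range of sizes. Its signal in C57BL6/J was 9049, 13897 and 9256 at E18.5 and 3471, 4937 and 3050 at P30.5. AKR/J had 12859 and 12026 at E18.5 and 3420, 3942 and 2779 at P30.5, and CAST/EiJ 7104, 10543 and 6650 against 2780, 4113 and 2366. In each strain the lowest E18.5 array was well above the highest P30.5 array. NOD.NON-H2-nb1 had 7735, 12712 and 11647 against 3074, 4236 and 3185, and RD7 9906, 11962 and 12799 against 3595, 5476 and 2824. The log2 changes were −1.49 ± 0.26, −1.89 ± 0.29, −1.40 ± 0.26, −1.60 ± 0.26 and −1.59 ± 0.26, with adjusted p from 1.07e-05 in AKR/J to 0.00011 in CAST/EiJ.

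A list of genes mutated in Diamond-Blackfan anaemia in people, which does not hold every such gene, had 7 members here (Rps19, Rps24, Rpl11, Rps7, Rps10, Rps26 and Rps29), of which 3, 5, 4, 4 and 4 were called lower in strain order. Among all genes 15.7% to 17.6% were called lower. Rps26 and Rps10 were called lower in every strain, with mean log2 changes of −1.23 and −1.26. Rpl11, which binds the 5S ribosomal RNA and, when free, the p53 inhibitor Mdm2, changed by −0.40, −0.85, −0.74, −0.96 and −0.76 in strain order and was called in all but C57BL6/J. Rps24 was called in AKR/J alone, at −1.09. Rps7 and Rps29 were called in no strain.

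Rps29, a small zinc-binding protein of the small subunit, was the member with the smallest change among those negative in all strains. Its signal in C57BL6/J was 27550, 31161 and 24673 at E18.5 and 25829, 29924 and 21239 at P30.5. AKR/J had 26961 and 25333 against 25800, 19408 and 24302, and CAST/EiJ 21995, 33484 and 20935 against 21751, 33920 and 18623. The ages overlapped in every strain. NOD.NON-H2-nb1 had 23506, 39386 and 28421 against 20222, 27165 and 20614, and RD7 27295, 36319 and 24436 against 27605, 35701 and 20321. The mean log2 change over strains was −0.17, from −0.41 in NOD.NON-H2-nb1 to −0.06 in CAST/EiJ.

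The other members with small changes on their representative probe sets were Rps7 (mean −0.31), Rpl10a (−0.36), Rpl13a (−0.37) and Rps28 (−0.39), which were also bright. Rpl13a fell more on some of its dimmer probe sets. In C57BL6/J their mean signals went from 4224 to 1687 and from 8737 to 3954, against 21774 to 18860 on the representative one. The size of the fall was not the same at every signal of the probe set, and did not run one way with it. The 9 members between 7 and 10 had medians from −0.89 in RD7 to −0.44 in C57BL6/J. The 10 members with a mean log2 signal of 14 or more had median changes from −0.56 in AKR/J to −0.28 in CAST/EiJ. The 10 members between 10 and 13 had medians from −1.26 in AKR/J to −0.80 in C57BL6/J, and the 16 between 13 and 14 from −1.04 in AKR/J to −0.62 in CAST/EiJ. Over all genes in these ranges of signal the medians lay between −0.18 and 0.02. Whether bright probe sets respond less to the same change in RNA was not tested.

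**Figure D2:**
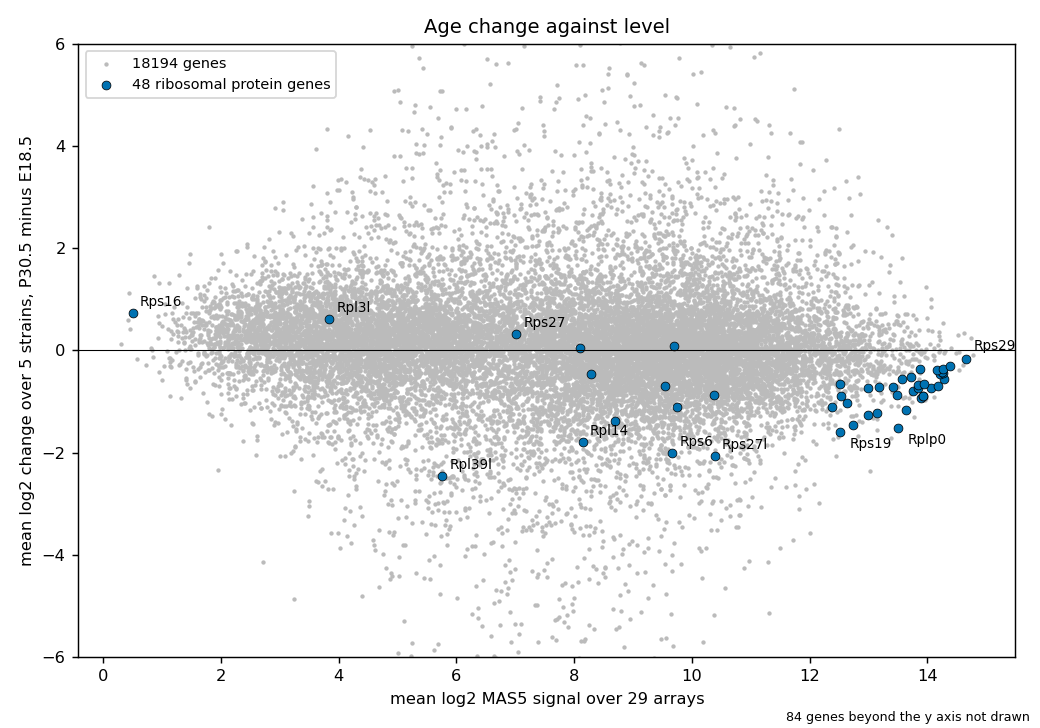
The x axis is the mean log2 signal over 29 arrays and the y axis the mean log2 change from E18.5 to P30.5 over 5 strains, for 18194 genes (grey) and the 48 ribosomal protein genes (blue), with 84 genes beyond the y axis not drawn. The blue points lie mostly at the bright end and below 0, and rise towards 0 from Rplp0 (−1.52) to Rps29 (−0.17).

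Members of both subunits were called lower in every strain, where 15.7% to 17.6% of all genes were. Of the 26 large subunit members, 13, 18, 11, 18 and 16 were called lower in strain order, with medians from −0.95 to −0.64. Of the 22 small subunit members it was 8, 12, 8, 12 and 10, with medians from −0.74 to −0.46. The large subunit had the larger share called and the lower median in each strain, a difference that was not tested. The large subunit members called in all strains included Rpl35 and Rpl27, with mean changes of −1.17 and −1.02. Among the small subunit members Rps9, which helps keep decoding accurate, had a mean change of −1.46. Of the 4 members with visible mouse mutants, 1 or 2 were called in each strain, too few to set against the share of all genes. They are Rpl38 (Tail-short), Rps19 and Rps20 (Dark skin) and Rpl27a (Sooty foot ataxia). Rpl38 was called in none, with changes of −0.66 or below and adjusted p from 0.0547 to 0.169.

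The copies of core genes did not move as a group. Rpl22l1, the copy of Rpl22, was called lower in 4 strains, at −1.08 to −0.83, and changed by −0.49 in C57BL6/J, where its adjusted p was 0.0527. Rpl22 itself was called lower in all 5, at −1.08 to −0.65. Rps4l, a copy of Rps4x, was not called with age, with changes from −0.13 to 0.36, and Rps4x was called lower in 2 strains, with changes from −0.80 to −0.37. Rpl3l, which replaces Rpl3 in skeletal and heart muscle, was near the bottom of the signal scale and was called in no strain, with changes from −0.80 to 1.91. Rpl39, at the exit of the nascent chain, changed by −0.12 to 0.41 and was not called either.

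Rps6, the small subunit protein that the S6 kinases phosphorylate, and Rpl14, of the large subunit, gave larger age changes on their own probe sets than on those they share with other symbols. On the representative probe set, Rps6 had a signal of 1665, 1858 and 1580 at E18.5 and 536, 577 and 455 at P30.5 in C57BL6/J. The mean change over strains was −2.02, and it was called in every strain, with adjusted p from 2.69e-09 in CAST/EiJ to 7.35e-06 in RD7. The dimmer probe set of Rps6 had a mean log2 signal of 4.86 and changes from −0.97 to 1.89. The 9 probe sets that Rps6 shares with other symbols had median changes of −0.26, −0.50, −0.13, −0.54 and −0.41 in strain order. Rpl14 had 1 probe set of its own, called lower in every strain with a mean change of −1.80, and 5 shared ones, with medians from −1.08 in AKR/J to −0.49 in C57BL6/J. Rpl12, which sits at the base of the stalk, is a case where the probe sets moved alike: its own changed by −1.39 on average, and the 2 shared ones had medians from −1.67 to −1.15.

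Across the family, the other probe sets mostly pointed the same way. Of all 103, 1 probe set was called higher with age, in RD7, and its mean log2 signal was under 7. Of the 89 member probe sets with a mean log2 signal of 7 or more, 85 to 87 had a negative age change in each strain, with medians from −1.04 in AKR/J to −0.75 in C57BL6/J. In the 20 genes with at least 2 such probe sets, all probe sets of a gene were negative in 20, 19, 20, 19 and 19 genes. The exception in NOD.NON-H2-nb1 was Rpl41, the shortest ribosomal protein, whose probe sets ran from −1.90 to 0.50. The 110 probe sets annotated to several symbols, at least 1 of them a ribosomal protein, had medians from −0.88 in AKR/J to −0.54 in C57BL6/J. They share much sequence with one another and with pseudogenes, so they are not separate measurements.

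The fall was also present among arrays of the same date. Within the 13 pairs of a strain and a date that held both ages, the members' median change ran from −1.07 in RD7 at the second date to −0.40 in C57BL6/J at the fourth, and 42 to 46 of the 48 members were lower in each. Rps27l was lower in 13 of 13 pairs, at −2.58 to −1.35. Rplp0, Rps19 and Rps26 were lower in 13 of 13 as well, with changes from −2.34 to −0.65, −2.19 to −1.13 and −1.50 to −0.92. Most of these pairs compare 1 array with 1 array and carry no test.

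**Figure D3:**
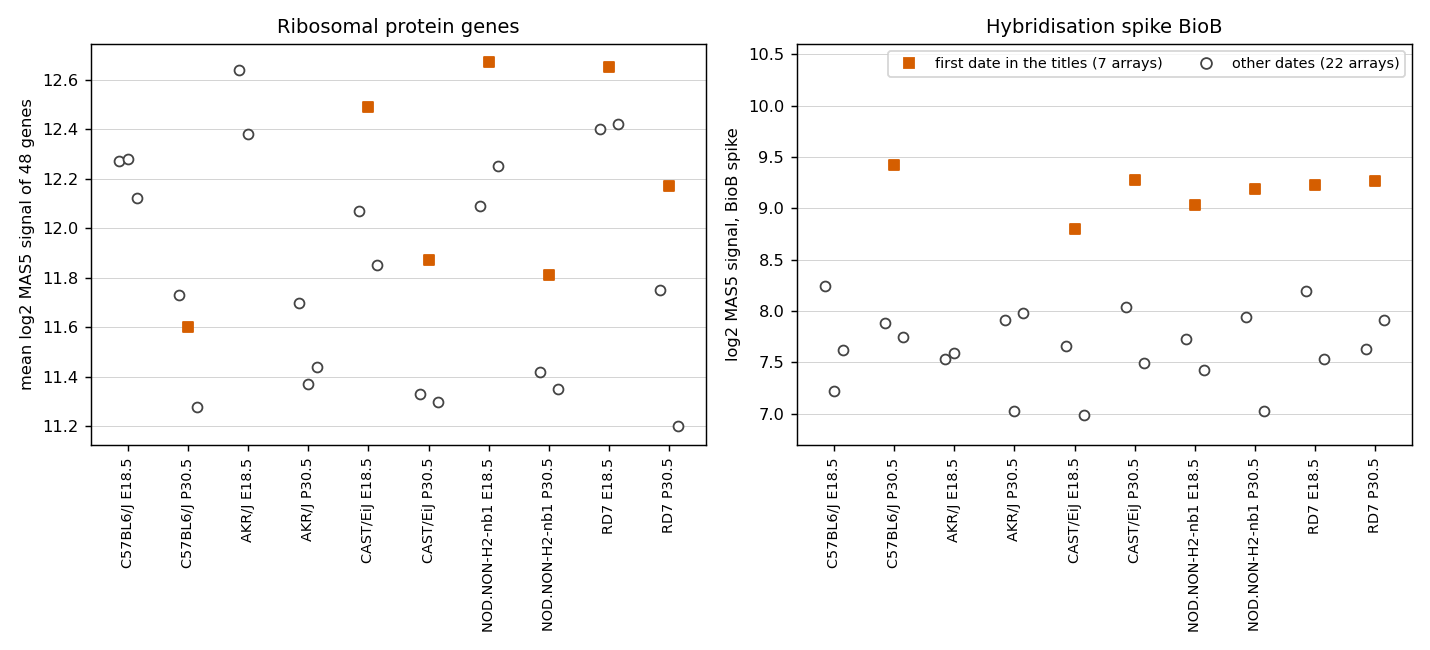
The left panel gives the mean log2 signal of the 48 ribosomal protein genes in each of 29 arrays, by strain and age, and the right panel the log2 signal of the BioB hybridisation spike. Squares mark the 7 arrays of the first date, whose spike signal is 8.80 to 9.43 and whose ribosomal protein mean is above that of the other arrays of its group in 6 of the 7 groups they belong to.

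The members' mean log2 signal on the 3 E18.5 arrays of the first date was 12.49 to 12.67, and on the other 11 it was 11.85 to 12.64. On the 4 P30.5 arrays of the first date it was 11.60 to 12.17, and on the other 11 it was 11.20 to 11.75. The highest P30.5 array, RD7 replicate 2 at 12.17, thus lay within the E18.5 range. Measures of RNA quality moved with age too: the log2 ratio of the 3′ to the 5′ probe set was 0.71 to 1.32 at E18.5 and 0.31 to 1.05 at P30.5 for Gapdh, and 1.22 to 1.78 and 1.56 to 2.22 for beta-actin, in opposite directions. Markers of tissues around the retina moved with age unevenly. The median change of 10 lens genes was 6.14 in C57BL6/J, with 7 called higher, and −4.76 in AKR/J, with 2 called lower. For 11 pigment epithelium genes it was 2.33 in C57BL6/J, with 9 called higher, and −1.10 to 0.66 in the others. For 6 blood genes it ran from −1.90 in RD7 to 0.12 in C57BL6/J, for 8 neuron genes from −0.36 to 0.61, and for 13 genes of the periocular mesenchyme from −5.61 in AKR/J to 0.39 in C57BL6/J. Over arrays, the mean log2 signal of the lens list ran from 3.13 to 14.06 at E18.5 and from 3.85 to 14.94 at P30.5, and that of the pigment epithelium list from 7.74 to 11.12 and from 10.07 to 11.77. The part of these markers and of RNA quality in the fall was not tested, beyond the muscle covariate above. Together the 48 representative probe sets, without the members' other probe sets, made up 1.53% to 2.33% of an array's summed signal at E18.5 and 0.953% to 1.64% at P30.5.

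Other genes of ribosome making were counted from lists by function. Among all genes, 17.4%, 15.7%, 17.5%, 16.8% and 17.6% were called lower with age in strain order, and 15.9% to 17.6% higher. Of 11 RNA polymerase I genes, which transcribe the ribosomal RNA, 7, 3, 4, 4 and 6 were called lower in strain order, and 0 higher. Taf1d, a subunit of the promoter selectivity factor, was called lower in all 5, at −1.57 to −1.05. Of 36 ribosome biogenesis factors, 14 to 21 were called lower and 1 or 2 higher. Fbl, the methyltransferase of ribosomal RNA, changed by −1.59 to −1.19, and Noc2l by −1.98 to −1.11. Rrp1b was among those called higher, in every strain, at 1.06 to 1.95. Of 14 genes listed as having mRNAs with the same 5′ motif, mostly translation factors, 5 to 9 were called lower and 0 higher. The motif was not looked for in their sequences here. Eef1b2 and Eef1d, exchange factors of elongation, changed by a mean of −1.26 and −1.07, while Eef1a1, on which they act, had −0.09 and was not called.

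The mitochondrial ribosomal proteins, which build a separate ribosome and whose mRNAs lack that motif, had medians from −0.38 to −0.21, and 18, 13, 16, 13 and 22 of 76 were called lower in strain order and 1 to 3 higher. As shares these were 23.7%, 17.1%, 21.1%, 17.1% and 28.9%, next to 17.4%, 15.7%, 17.5%, 16.8% and 17.6% of all genes, so that AKR/J and NOD.NON-H2-nb1 lay near the share of all genes. Mrps15 and Mrpl12 were called lower in every strain, with mean changes of −0.97 and −0.96, and Mrpl49 higher in every strain, with a mean of 1.18. Of 13 regulators of ribosomal protein synthesis, 4 or 5 were called lower and 1 higher in each strain. The share called lower was 30.8% to 38.5%, on few genes, next to 15.7% to 17.6% of all genes. Myc, the transcription factor that drives ribosome genes, changed by −5.80 in NOD.NON-H2-nb1 to −2.09 in C57BL6/J. Eif4ebp1, an mTOR target that blocks cap-dependent initiation, changed by −4.06 to −2.87, and Mtor itself by 0.45 to 0.70. Rpsa, a ribosomal protein outside the naming rule, was called lower in all 5 strains, at −1.21 to −0.75, and Fau, the other one measured, in 2.

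The comparison of strains was made at each age separately. The strain means of a member spanned a median of 0.35 on the log2 scale at E18.5 and 0.38 at P30.5. For 8 and 7 members they spanned more than 1, and for 29 and 28 less than 0.5. All strain comparisons are against the same C57BL6/J arrays. At E18.5, AKR/J had 3 members called (9.96% of all genes in either direction), CAST/EiJ had 7 (14.9%), NOD.NON-H2-nb1 had 1 (2.30%) and RD7 had 1 (3.39%). At P30.5, AKR/J had 1 (2.65%), CAST/EiJ had 5 (12.4%), NOD.NON-H2-nb1 had 2 (2.06%) and RD7 had 0 (0.577%), where limma gave 0 at an unadjusted p under 0.05 too. With counts this small beside these shares, nothing is read from them about the family. The calls fell on 8 genes: Rps4l, Rps25, Rpl14, Rps6, Rpl7l1, Rps27l, Rpl37 and Rpl39l. Without the arrays of the first date the calls of Rpl37, Rps27l and Rpl39l (in RD7) were lost and the others were kept.

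Rps4l was lower than in C57BL6/J in 3 strains at both ages. Its signal in C57BL6/J was 1113, 1060 and 1348 at E18.5 and 1544, 1631 and 1334 at P30.5. AKR/J had 719 and 623 at E18.5 and 806, 616 and 653 at P30.5, and CAST/EiJ 317, 427 and 443 and then 326, 504 and 281. Every array of these strains lay below every C57BL6/J array of its age. NOD.NON-H2-nb1 had 564, 654 and 533 and then 607, 768 and 548, and RD7 1684, 1788 and 1944 and then 2392, 1960 and 1304. The differences at E18.5 were −0.80 ± 0.24 for AKR/J (adjusted p = 0.0357), −1.58 ± 0.21 for CAST/EiJ (4.08e-06) and −1.01 ± 0.21 (0.00615) with NOD.NON-H2-nb1 pools. At P30.5 they were −1.12, −2.06 and −1.24, with adjusted p of 0.00182, 5.99e-08 and 0.000615. RD7 had 0.63 and 0.29 and was not called. The AKR/J call at E18.5 was lost when any 1 of the 5 arrays compared was left out, and with the muscle level as a covariate (−0.59). The NOD.NON-H2-nb1 call at E18.5 was lost without replicate 3 of C57BL6/J (−0.90) and on RMA values (−0.64). The gene has 1 probe set, and whether the strains' sequences differ under it was not tested.

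Rps25, a small subunit protein that some viral mRNAs need to start translation without a cap, was brighter in CAST/EiJ pools of both ages than in those of C57BL6/J. Its signal at E18.5 was 1916, 1930 and 2048 in CAST/EiJ and 1277, 1072 and 1170 in C57BL6/J, with no overlap. At P30.5 it was 768, 1069 and 844 against 405, 457 and 471. The differences were 0.75 ± 0.19 (adjusted p = 0.0074) and 0.997 ± 0.193 (0.000541). The P30.5 pools of NOD.NON-H2-nb1, with 710, 690 and 935, were higher by 0.80 ± 0.19 (0.0209), a call lost without replicate 1 or 2 of C57BL6/J or replicate 3 of NOD.NON-H2-nb1 (0.73, 0.82 and 0.66) and in a fit of the compared groups only. The age fall of Rps25 was called in every strain, at −1.40 to −0.93.

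**Figure D4:**
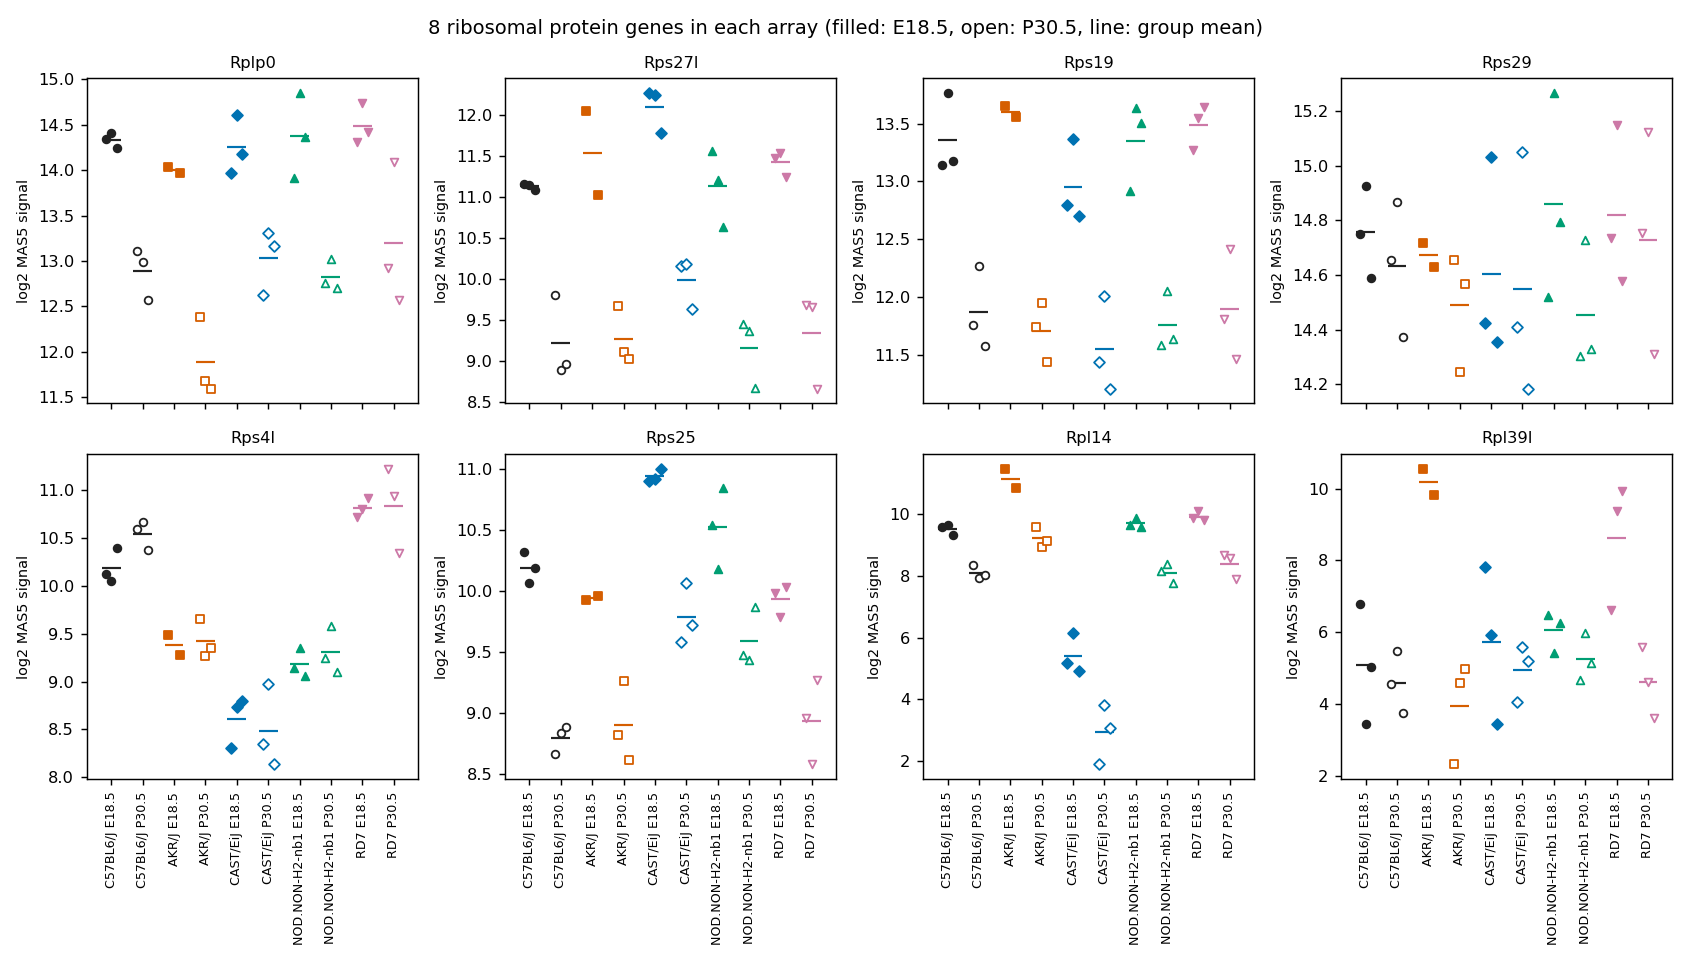
Each panel gives 1 ribosomal protein gene, with the log2 MAS5 signal of each array on the y axis and the strain and age on the x axis, filled for E18.5 and open for P30.5, and a line for the group mean. Rplp0, Rps27l and Rps19 step down with age in each strain and Rps29 does not. Rps4l, Rps25 and Rpl14 differ by strain, and Rpl39l is high in the AKR/J E18.5 pools and in 2 of 3 RD7 E18.5 pools.

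Rpl14 differed between strains on its own probe set. Its signal in CAST/EiJ was 36.4, 70.7 and 30 at E18.5 and 3.67, 14 and 8.38 at P30.5, and in C57BL6/J it was 769, 811 and 637 and then 330, 242 and 263. In AKR/J it was 2848 and 1856 and then 776, 493 and 560. The CAST/EiJ arrays were the lowest of all and the AKR/J ones the highest, with no overlap with C57BL6/J at either age. CAST/EiJ differed by −4.11 ± 0.35 before birth and by −5.19 ± 0.35 after it (adjusted p = 1.86e-09 and 3.58e-11). Its signals are so low, with no detection call used here, that these sizes depend on the scale: with 32 added to each signal they were −3.34 and −2.93, both called. By the fit without it, AKR/J at E18.5 differed by 1.65 ± 0.39 (0.00791). That call was lost without replicate 1 of AKR/J (1.34) and with the muscle level as a covariate (1.85). The 5 probe sets that Rpl14 shares with other symbols showed nothing of the kind in CAST/EiJ: 0.16 to 0.33 at E18.5 and −0.15 to 0.09 at P30.5, none of them called.

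Rps6 was lower in CAST/EiJ on its own probe set, with signals of 1143, 923 and 609 at E18.5 and 187, 88.9 and 158 at P30.5. The differences were −0.98 ± 0.25 (adjusted p = 0.00634), lost without replicate 3 of CAST/EiJ at E18.5 (−0.72), and −1.92 ± 0.25 (2.25e-06). The 9 shared probe sets had median differences of −0.25 and −0.13, with 2 and 1 of them called lower. A dimmer probe set of Rps6 itself was called lower too, by −3.33 ± 0.80 and −2.41 ± 0.80 (0.00401 and 0.0451). On RMA values, which hold only that dimmer probe set, the Rps6 differences were −0.35 and −0.14 and neither was called.

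Rps27l was higher in CAST/EiJ on all 3 of its probe sets, by 0.96, 0.68 and 1.05 at E18.5 and by 0.77, 1.13 and 0.97 at P30.5. The representative probe set was called at E18.5 (adjusted p = 0.0294) and not at P30.5 (0.1). The others were both called at P30.5 (0.00543 and 0.0335), and 1 of them at E18.5 (0.0178). The E18.5 call of the representative one was lost when any of 5 of the 6 arrays was left out. Rpl37, of the large subunit, was higher in the E18.5 pools of CAST/EiJ by 0.75 ± 0.23 (0.0278), lost without replicate 1 of C57BL6/J (0.45) or replicate 2 of CAST/EiJ (0.58). Both E18.5 calls were also lost with the muscle level as a covariate (0.84 for Rps27l and 0.63 for Rpl37) and on RMA values. For Rps27l the RMA values hold only the probe sets other than the representative one, so that loss is not on the same probe set.

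Some strain differences lay on a single further probe set of a gene. A probe set of Rps9 with the suffix x had signals of 9967, 12118 and 8851 in C57BL6/J and 782 and 1070 in AKR/J at E18.5. NOD.NON-H2-nb1 had 488, 756 and 669, and RD7 14006, 15123 and 10147. Both AKR/J and NOD.NON-H2-nb1 lay far below the other strains, by −3.48 and −4.03 at E18.5 and −4.81 and −4.39 at P30.5. The representative probe set of Rps9 differed by 0.30 and 0.23 at E18.5 and by 0.08 and 0.20 at P30.5, with no call.

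Rpl7l1, a relative of Rpl7 whose yeast counterpart acts in assembling the large subunit, had such a probe set as well. On the dimmest of its 3 probe sets the C57BL6/J signal was 350, 418 and 428 at E18.5 and 284, 287 and 389 at P30.5. NOD.NON-H2-nb1 had 18.9, 34.9 and 44.4 and then 11.8, 2.96 and 4.44, and CAST/EiJ 27.6, 41.6 and 16.6 and then 34.4, 36.5 and 34.7. Both strains were below the others on every array. The log2 differences were −3.69 and −5.88 for NOD.NON-H2-nb1 and −3.89 and −3.17 for CAST/EiJ, against signals so low that their size is set by the scale. With 32 added to each signal they were −2.75 and −3.19, and −2.84 and −2.38, as values with no test. The representative probe set of Rpl7l1 was instead higher in CAST/EiJ, by 0.93 ± 0.19 at E18.5 (adjusted p = 0.00103) and 0.69 ± 0.19 at P30.5 (0.0156). The latter call was lost without replicate 1 or 3 of C57BL6/J or replicate 2 of CAST/EiJ at P30.5 (0.63, 0.63 and 0.54), and with the mean over all probe sets the sign turned, to −0.85 and −0.72. Rps3, at the mRNA entry of the small subunit, had 1 further probe set lower in CAST/EiJ, by −1.26 and −1.19.

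**Figure D5:**
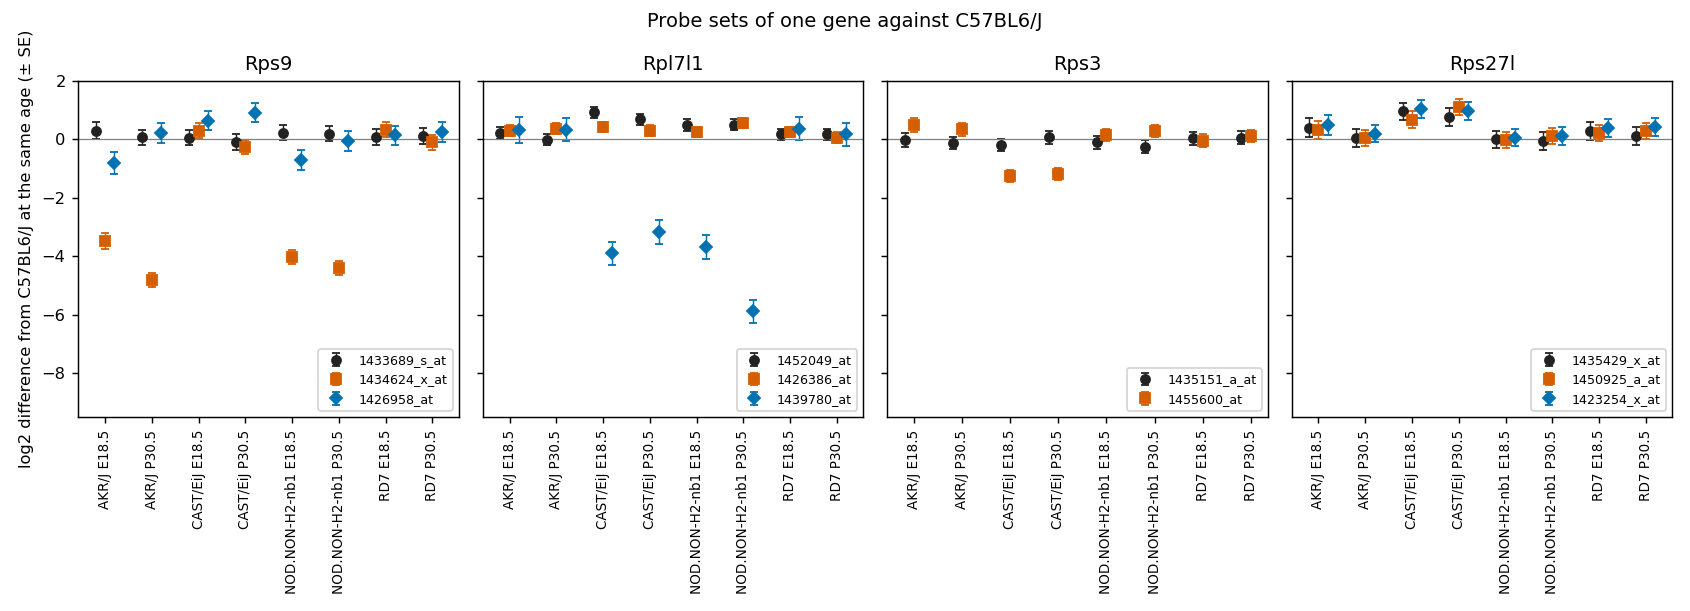
Points are log2 differences from C57BL6/J of the same age, with bars of 1 SE, for each probe set of Rps9, Rpl7l1, Rps3 and Rps27l, by strain and age. In Rps9, Rpl7l1 and Rps3 a single probe set drops in 1 or 2 strains, while the gene's other probe sets do not follow it, and in Rps27l all 3 probe sets are higher in CAST/EiJ.

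Rpl39l, the copy of Rpl39 best known from the testis, was the member whose age change differed between strains. In AKR/J its signal was 1493 and 912 at E18.5 and 4.97, 23.9 and 31.2 at P30.5. In RD7 it was 97.6, 662 and 972 at E18.5 and 47.7, 24.4 and 12.3 at P30.5. In C57BL6/J it was 109, 10.9 and 32.6 at E18.5 and 23.7, 44.1 and 13.5 at P30.5. The high arrays were both AKR/J pools and 2 of the 3 RD7 pools at E18.5, while no P30.5 array of any strain was above 62.9. The E18.5 pools of NOD.NON-H2-nb1 had 89.6, 42.8 and 75.8, and those of CAST/EiJ 225, 60.9 and 10.8. The age change was −6.24 ± 1.07 in AKR/J (adjusted p = 6.19e-05) and −4.03 ± 0.96 in RD7 (0.002), and from −0.79 to −0.48 elsewhere, with no call. The P30.5 signals are so low, with no detection call used here, that these sizes depend on the scale.

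Against C57BL6/J at E18.5, Rpl39l was higher by 5.11 ± 1.07 in AKR/J (adjusted p = 0.00263), a call lost without replicate 1 of AKR/J (4.75), and by 3.55 ± 0.96 in RD7 (0.0465). With 32 added to each signal these differences at E18.5 were 4.04 in AKR/J and 2.62 in RD7, both called. The age change in AKR/J differed from that in C57BL6/J by −5.75 ± 1.44 (0.046), a size that also depends on the scale. It was the 1 member called among the interactions with AKR/J (1.89% of all genes). No member was called in those with CAST/EiJ (2.28%), NOD.NON-H2-nb1 (0.121%) and RD7 (0.747%), where limma gave 3, 1 and 1 members at an unadjusted p under 0.05.

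The muscle signal moved with Rpl39l. The mean log2 signal of the 17 muscle genes was 11.24 and 11.35 in the AKR/J E18.5 pools and 6.80, 11.13 and 10.61 in those of RD7, highest in the same 4 arrays that were high in Rpl39l. It was also 10.49 in NOD.NON-H2-nb1 replicate 1 and 10.53 in CAST/EiJ replicate 1 at E18.5, where Rpl39l was at 89.6 and 225 and the mesenchyme mean at 9.65 and 11.58. The mean of 13 periocular mesenchyme genes was 11.95 and 12.09 in AKR/J and 8.02, 10.96 and 11.97 in RD7. With the muscle level as a covariate, the difference at E18.5 fell to 1.90 in AKR/J and 1.35 in RD7 and neither was called. Each of the RD7 call at E18.5 and the AKR/J interaction call was also lost in 19 of 29 fits that left out 1 array, with values from 2.73 to 3.55 and from −6.26 to −4.93 in those fits.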

How the data were processed

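RNA was extracted with TRIzol from dissected retinas and equimolar RNA of 10 retinas was pooled for each of 29 arrays (10 groups of 2 or 3). The deposited intensity is the linear MAS5 signal, which the authors scaled array by array: the 2% trimmed mean of each array is 500. A further deposited table holds log2 RMA values that the authors kept for 25444 of the 45101 probe sets, by a rule not given in the sources used here. It holds 20 of the members, 8 of them by their representative probe set, and was used as an alternative. For the others held, a different probe set of the gene was read. Probe sets were named through the platform annotation table, and 34754 symbols were matched by gene ID to RefSeq. The number of arrays limits the precision.

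A limma model (version 3.58.1, R 4.3.3) with 10 group means (19 residual degrees of freedom) and a mean trend in the prior variance was fitted to log2 MAS5 signals, and tests ran over all 45101 probe sets for each of 17 comparisons, with Benjamini-Hochberg adjustment. The comparisons were age within a strain, every other strain minus C57BL6/J at both ages, and the difference between age changes. Errors are SE. The script was tested on simulated data. The dates in the array titles pair arrays across groups: deviations from the group means correlated by 0.134 on average between arrays of the same date and by −0.0622 between arrays of other dates.

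The members, the lists and the tests were chosen with earlier results of these data known. Genes named were the 5 members with the lowest and the 5 with the highest mean age change, up to 4 strain differences per strain and age whose arrays did not overlap, members called in an interaction, the 4 brightest and 4 dimmest, members with a listed role, and 2 in each direction from each other list. Others named were chosen after their values were seen. Alternatives were other scalings, RMA values, date as a block, a muscle covariate, filters, other gene summaries and leaving out arrays.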

Additional observations from a re-analysis of the deposited data

Results flagged for a closer look

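The age change of Rpl39l in AKR/J differed from that in C57BL6/J by −5.75 ± 1.44 on the log2 scale (limma, adjusted p = 0.046), which singled it out as a difference between groups. It rests on the 2 AKR/J E18.5 pools, with signals of 1493 and 912, which were also the 2 with the highest mean muscle signal. With the muscle level as a covariate the difference was −2.54 and was not called. It was −5.49 with the title date as a replicate block and −5.32 without the arrays of the first date, and was called in neither. It was also not called in 19 of the 29 fits that left out 1 array.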

How the results depend on the processing

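The members' median age change stayed negative in every strain and under every alternative run. The counts below are given without the share of all genes called in the same fit. They do not show whether a shift is particular to the members. Counts of members lower with age on RMA values, in the strain order of the report, were 10, 13, 11, 10 and 11, where 20 members are held, and 7, 12, 9, 9 and 6 at an adjusted p under 0.001 with a 2-fold change. With the title date as a replicate block they were 38, 38, 29, 41 and 36. In that fit the only array of the third date, C57BL6/J E18.5 replicate 3, has a term of its own and drops out. C57BL6/J had 11 with the muscle covariate, and CAST/EiJ 33 after quantile normalization. Quantile normalization with the block, chosen after seeing the data, gave 37, 38 and 40 in C57BL6/J, CAST/EiJ and RD7. Leaving out 1 array gave 13 to 23, 15 to 32, 11 to 26, 22 to 33 and 15 to 31, and AKR/J E18.5 then rests on 1 array assumed to vary like the others.

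Counts against C57BL6/J at E18.5 were, in AKR/J, 1 on RMA values and 0 with the muscle covariate and the 2-fold threshold. In CAST/EiJ they were 12 with the date block and 2 at the 2-fold threshold, and in NOD.NON-H2-nb1 0 on RMA values and at the 2-fold threshold and 3 with the mean over probe sets. In RD7 they were 0 on RMA values, at the 2-fold threshold, with the date block, with and without quantile normalization, with the compared groups only, without the mean trend, with the muscle covariate, and without the arrays of the first date, an alternative chosen after seeing the data.

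At P30.5 AKR/J had 3 with the date as a block, as a random block, or as a block after quantile normalization, 0 at the 2-fold threshold, and 2 after quantile normalization, with the compared groups only, without RD7 arrays, without dim probe sets, with 32 added to the signal, with the mean over probe sets, and without the first date. CAST/EiJ had 8 on RMA values and after median scaling, 9 with the date block, 10 with quantile normalization as well, and 3 at the 2-fold threshold. NOD.NON-H2-nb1 had 5 on RMA values and with the date block, with and without quantile normalization, 4 with the random block and with the mean over probe sets, and 1 with the compared groups only and at the 2-fold threshold. The AKR/J interaction count was 0 on RMA values, at the 2-fold threshold, with the date block, with and without quantile normalization, without the mean trend, with the muscle covariate and without the first date. Leaving out 1 array gave 0 to 4, 5 to 8, 0 to 1 and 0 to 1 at E18.5 for the strains other than C57BL6/J in that order, 1 to 2, 4 to 5, 1 to 3 and 0 at P30.5, and 0 to 1 in the AKR/J interaction.

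Among single genes, the age change of Rps6 turned to 0.0421 in CAST/EiJ and 0.0096 in RD7 on RMA values, which hold only its dimmer probe set, and to 0.12 in RD7 with the mean over probe sets. That mean also turned Rpl7l1 in CAST/EiJ to −0.85 at E18.5 and −0.72 at P30.5. The causes of the other shifts were not tested.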
